A study of Mus musculus with 12 samples.

Results

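The potassium channel genes of mouse corneal endothelial cells (CEC) were examined as 1 gene family. Its members are the genes that the expression tables list with a symbol starting with *Kcn* and as protein-coding, which gave 42 genes of the 15838 genes with a row. One further *Kcn* row is a long non-coding RNA and was left out. The libraries were made from the Descemet membrane, the basement membrane that carries the CEC, of C57BL/6 mice at 10 weeks of age. *Slc4a11*-/- (KO) mice carry a targeted deletion of several exons of *Slc4a11*, which encodes a transporter of the CEC, and *Slc4a11*+/+ (WT) littermates came from the same crosses of heterozygous mice. KO and WT mice of each sex made 4 groups with 3 libraries each, 12 in all, and no group received a treatment. The records and the methods count 3 male and 3 female mice of each genotype, which is 12 mice for 12 libraries, and the methods describe membranes processed as pairs from both corneas. The sample records speak of membranes pooled within a genotype, and the sources do not state outright that each library is 1 mouse.

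The value used for each gene is the authors' mean over all 12 libraries of log2 CPM, the read count of the gene scaled to the size of its library. It mixes both genotypes and both sexes, carries no error, and no value for a single library or group was used. The tables also hold the authors' own fitted comparisons of genotype and sex, which were left out by choice. The groups were therefore not compared, no test was run, and every statement on levels is a description of 1 pooled mean per gene. Values in CPM are the pooled mean taken back from the log2 scale. Because a longer transcript yields more reads, the order of genes and the ratios between them were taken per kb of exon, the CPM divided by the exonic length of the gene in GENCODE M21, with the value per kb of coding sequence beside a ratio that it moved by over 1.5 times or turned. Values in CPM without a length describe each gene, and counts past a CPM threshold are not corrected for length. Where levels of neighbouring genes in an order are close, the order has no error to be judged by.

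Potassium channels are membrane proteins whose pore lets K+ pass while holding back Na+, through a short selectivity filter shared by nearly all of them. Voltage-gated channels open on depolarization, inward rectifiers pass K+ mainly near the resting potential, 2-pore channels carry a background K+ current that sets that potential, and a further group, most of it opened by intracellular Ca2+ or Na+, is set apart. In the corneal endothelium the Na+/K+-ATPase takes up K+ as part of the pump that keeps the stroma dehydrated, K+ channels let that K+ leave again, and the resulting negative membrane potential acts on electrogenic bicarbonate transport across the same cells.

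Of the 42 members, 35 encode pore-forming subunits and 7 encode auxiliary subunits or regulators. The filter is shown here in coding DNA, because it is the stretch that makes a protein of the family a K+ channel. It is given for the 3 highest pore-forming members and for voltage-gated subunits that are silent on their own. Its middle codon varies even between the pores of *Kcnk5*, and a difference between classes was not tested. Each run is 36 bases of the coding strand from GENCODE M21 transcripts on GRCm38, 5′ to 3′. Capitals mark the 12 bases of 4 codons, a valine or isoleucine codon followed by the 3 codons of the filter.

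Kcnk5, first pore: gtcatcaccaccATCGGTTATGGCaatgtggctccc
Kcnk5, second pore: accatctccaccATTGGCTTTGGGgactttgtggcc
Kcnk1, second pore: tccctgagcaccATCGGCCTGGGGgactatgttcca
Kcnh5: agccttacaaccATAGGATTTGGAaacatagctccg
Kcnf1: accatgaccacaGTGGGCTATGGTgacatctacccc
Kcng1: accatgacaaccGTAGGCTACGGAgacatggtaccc
Kcns1: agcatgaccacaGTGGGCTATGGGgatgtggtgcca

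These runs lie in coding exons. The second pore of *Kcnk5* is at chr14:20144636-20144671 on the minus strand, and its first pore, split by an intron, spans chr14:20145103-20146516. The *Kcnk1* run is at chr8:126025320-126025355 on the plus strand, and the first pore of *Kcnk1* has the codon ACA in place of the valine or isoleucine codon and is not shown. The *Kcnh5* run is at chr12:75087454-75087489, the *Kcnf1* run at chr12:17175049-17175084, the *Kcng1* run at chr2:168262629-168262664 and the *Kcns1* run at chr2:164164842-164164877, all on the minus strand.

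The 3 filter codons were searched in frame, on the coding strand, as GGN followed by TAN, TTN or CTN and then GGN. All 35 pore-forming members held them, as did 4 of the 7 auxiliary members and 31.8% of the 12934 protein-coding genes with a row and a complete coding sequence. With only tyrosine or phenylalanine codons in the middle (TAC, TAT, TTC or TTT), the count was 35 of 35 pore-forming members, 0 of 7 auxiliary members and 15.5% of the protein-coding genes. With GTN or ATN required before them, as in the capitals above, 30 of the 35 pore-forming members, none of the 7 auxiliary members and 4.63% of the protein-coding genes held the 4 codons. The 5 pore-forming members without that form include the A-type subunits *Kcnd1*, *Kcnd2* and *Kcnd3*. A match is a description of the DNA and not a shown pore.

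Among the runs printed, the silent subunit *Kcnf1* shared 27 of 36 bases with *Kcns1* and 27 with *Kcng1*, and *Kcng1* and *Kcns1* shared 26. *Kcnf1* shared 20 bases with *Kcnh5*. The 2 pores of *Kcnk5* shared 22 of 36 bases with each other, and the second pore of *Kcnk5* shared 24 with that of *Kcnk1*. These pairs were chosen after the levels were seen. The runs were lined up on the codons searched for, so part of the shared bases was fixed by the search. Conducting voltage-gated members such as *Kcna5* were not compared, so a likeness particular to silent subunits was not tested.

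The family was low in these libraries apart from a few members. The median member had a mean of 2.49 CPM, against 20.6 CPM for all 12994 protein-coding genes with a row. Per kb of exon, the median was -1.09 log2 CPM for the members and 2.19 log2 CPM for protein-coding genes, a difference of -3.28 on the log2 scale. The median exonic length of 4547.5 bases in the members was close to the 4611 bases of protein-coding genes. A mean above 1 CPM was found for 36 of the 42 members (85.7%), against 95.3% of protein-coding genes. A mean above 10 CPM was found for 7 members (16.7%), against 66.7% of protein-coding genes, and 29 further members lay between 1 and 10 CPM. The 6 members at or below 1 CPM were *Kcnj13*, *Kcnc2*, *Kcnk2*, *Kcnj12*, *Kcnn2* and *Kcnmb4*, from 0.515 to 0.721 CPM.

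**Figure D1:**
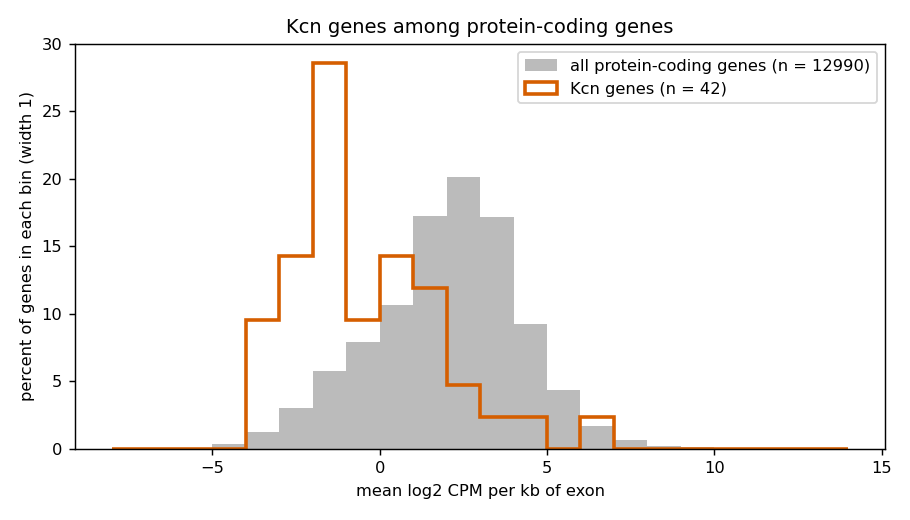
The horizontal axis is the authors' mean log2 CPM per kb of exon and the vertical axis the percent of genes in each bin of width 1, for the 42 *Kcn* genes (outline) and for the 12990 protein-coding genes with an exonic length in GENCODE M21 (grey). Most *Kcn* genes sit to the left of the grey bulk, with 37 of 42 below its median and 32 below its lower quartile.

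Per kb of exon, 5 members lay above the median of protein-coding genes (*Kcnk5*, *Kcnk1*, *Kcnh5*, *Kcnip3* and *Kcnf1*), 2 of them above the upper quartile (*Kcnk5* and *Kcnk1*), and 32 members lay below the lower quartile. *Kcnk5* alone held 46.7% of the summed CPM per kb of the 42 members, *Kcnk5* and *Kcnk1* together held 66.9%, and with *Kcnh5* the share was 73.8%. *Kcnk5* stood 973-fold above *Kcnc2*, the lowest member per kb of exon, at a mean of 0.520 CPM. The ratio was 594 per kb of coding sequence, where *Kcnn2* took the last place.

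**Figure D2:**
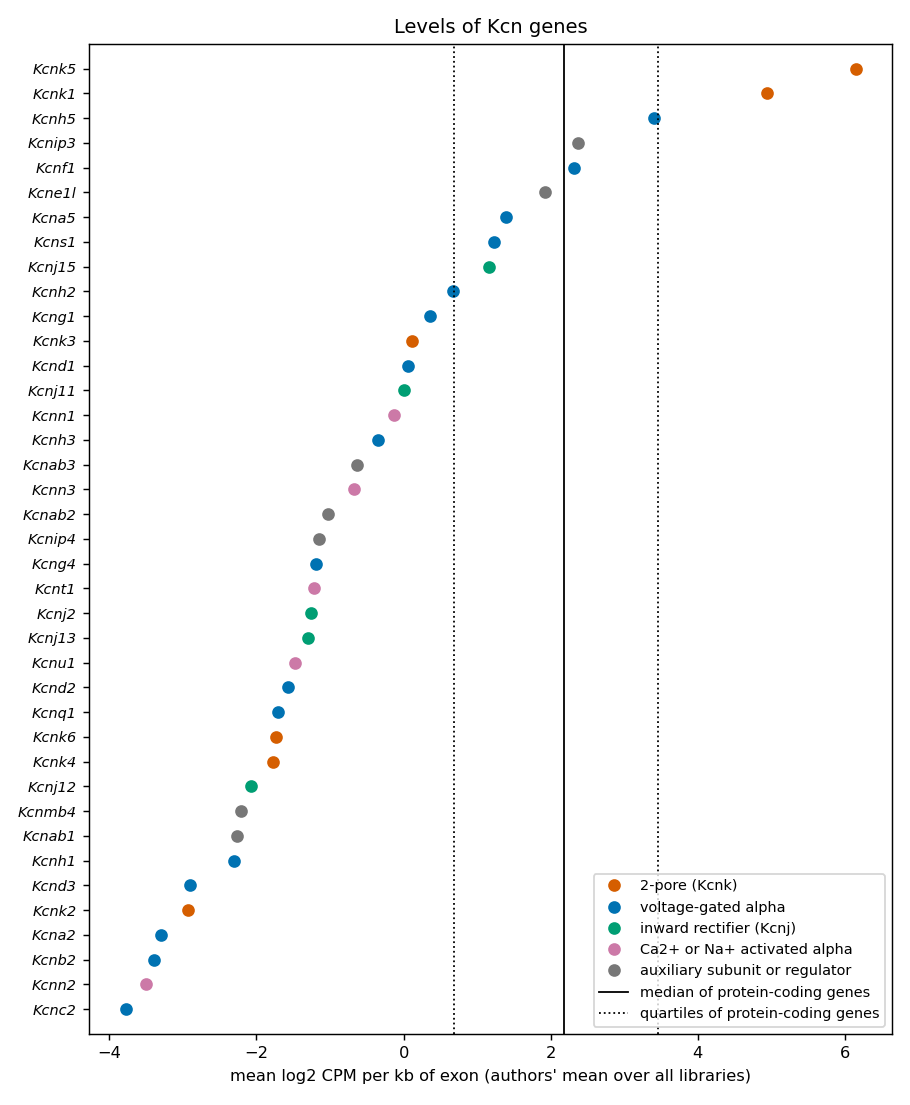
Each point is 1 of 39 of the 42 *Kcn* genes, placed on the horizontal axis by the authors' mean log2 CPM per kb of exon over all 12 libraries and coloured by class, with the median (solid line) and quartiles (dotted lines) of protein-coding genes. No error bar is drawn because the pooled mean has none. *Kcnk5* at 6.15 and *Kcnk1* at 4.94 lie beyond the upper quartile, and the points from *Kcnh2* downward crowd below the lower quartile.

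GENCODE M21 annotates 94 protein-coding *Kcn* genes, of which 42 (44.7%) had a row and 52 had none. Of all 21951 annotated protein-coding genes, 12991 (59.2%) had a row. A gene without a row was not analysed here, and no level is given for it. The study's methods name a CPM threshold for calling differential expression and give no rule for which genes were kept. What left a gene without a row is therefore not known. By class, a row was found for 19 of 40 voltage-gated alpha subunits, 6 of 14 2-pore channels, 5 of 15 inward rectifiers, 5 of 8 Ca2+ or Na+ activated alpha subunits and 7 of 17 auxiliary subunits or regulators. All annotated *Kcnd* and *Kcnab* genes had a row. None was found for *Kcnma1*, the large-conductance Ca2+-activated channel, for *Kcnj10* and *Kcnj16*, inward rectifiers of epithelia and glia, for *Kcnj8*, a pore subunit of vascular ATP-sensitive channels, or for *Kcnv1* and *Kcnv2*, silent voltage-gated subunits.

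**Figure D3:**
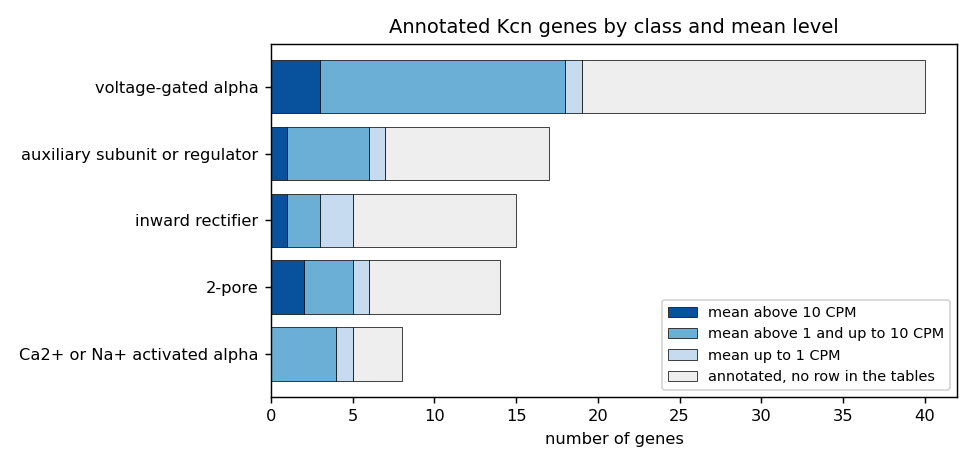
Each bar is 1 class of the 94 annotated *Kcn* genes, and its length on the horizontal axis is the number of genes, split by mean level and with genes that have no row in light grey. The 2-pore class has 2 members above 10 CPM of 14 annotated genes, and the voltage-gated class 3 of 40.

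The 2-pore channels held 68.1% of the summed CPM per kb of the family with 6 members. *Kcnk5* encodes a background K+ channel that opens at alkaline extracellular pH and is known from cells that move bicarbonate, such as those of the renal proximal tubule. Its gene spans chr14:20140057-20181809 on the minus strand of GRCm38 with 3404 exonic bases. Its mean was 241.6 CPM, or 71.0 CPM per kb, above 97.5% of protein-coding genes. *Kcnk1*, a weakly conducting background channel of many epithelia at chr8:125995170-126030685 on the plus strand, had a mean of 68.7 CPM, or 30.8 CPM per kb, above 92.5% of protein-coding genes. *Kcnk5* was thus 2.31-fold above *Kcnk1* per kb.

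The other 4 members of the class lay far below that pair. *Kcnk3*, an acid-inhibited background channel, had a mean of 4.30 CPM and stood 65.6-fold below *Kcnk5* per kb, a pair chosen after the levels were seen. *Kcnk4* had a mean of 1.31 CPM and *Kcnk6*, a channel of endosomes and lysosomes, one of 1.24 CPM. *Kcnk2*, which like *Kcnk4* encodes a channel opened by membrane stretch and by lipids, had a mean of 0.649 CPM. All 4 lay below the lower quartile of protein-coding genes per kb.

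The voltage-gated class had 19 members, of which 18 were above 1 CPM and 3 above 10 CPM, and it held 20.3% of the summed CPM per kb. *Kcnh5*, an ether-à-go-go type channel that is best known from brain, lies at chr12:74897220-75177332 on the minus strand. Its mean was 42.8 CPM, or 10.6 CPM per kb of exon, above 74.0% of protein-coding genes. Per kb of coding sequence it was above 49.6% of them. *Kcnk1* stood 2.91-fold above it per kb of exon and 4.72-fold per kb of coding sequence. The other members of the *Kcnh* group with a row were lower, at 1.59 CPM per kb for *Kcnh2*, the rapid delayed rectifier of the heart, 0.786 CPM per kb for *Kcnh3* and 0.203 CPM per kb for *Kcnh1*, a close relative of *Kcnh5*. Their means were 7.70, 4.52 and 1.48 CPM.

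*Kcnf1* encodes a subunit that forms no working channel alone and modifies other voltage-gated subunits when it assembles with them. It lies at chr12:17172100-17176888 on the minus strand, and its mean was 24.0 CPM, or 5.0 CPM per kb, above 52.6% of protein-coding genes. *Kcnb2*, a delayed rectifier, had a mean of 1.45 CPM over 15165 exonic bases.

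Further silent subunits of this kind were below *Kcnf1* per kb. *Kcns1* had a mean of 6.35 CPM, or 2.34 CPM per kb. *Kcng1* had a mean of 5.80 CPM and *Kcng4* one of 1.66 CPM. *Amigo1*, an adhesion protein that binds voltage-gated K+ channels and is no *Kcn* gene, had a mean of 27.0 CPM, or 4.87 CPM per kb. This group of genes was put together after the values were seen, and levels of RNA do not show which subunits assemble.

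The other voltage-gated members described had means between 0.520 and 7.53 CPM. *Kcna5*, a fast delayed rectifier of atrial muscle, was the highest of them at 7.53 CPM, or 2.63 CPM per kb, and *Kcna2*, a channel of axons with 11906 exonic bases, had 1.21 CPM. Per kb of exon the ratio of these 2 was 26.0, and per kb of coding sequence 5.17. The A-type subunits *Kcnd1*, *Kcnd2* and *Kcnd3* had means of 5.52, 1.74 and 1.28 CPM. *Kcnc2*, a subunit known from fast-firing neurons, had a mean of 0.520 CPM, and *Kcnq1*, a channel of heart and epithelia, one of 1.25 CPM.

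The inward rectifiers held 2.82% of the summed CPM per kb with 5 members. *Kcnj15*, known from the basolateral membrane of renal proximal tubule cells, lies at chr16:95257558-95300260 on the plus strand and had a mean of 14.1 CPM. With 6313 exonic bases this was 2.24 CPM per kb, above 31.3% of protein-coding genes. *Kcnj11*, the pore of ATP-sensitive K+ channels, had a mean of 3.68 CPM and stood 2.23-fold below *Kcnj15* per kb of exon and 3.72-fold per kb of coding sequence. Its regulatory partners, the sulfonylurea receptors *Abcc8* and *Abcc9*, had means of 8.52 and 1.28 CPM. *Kcnj2*, a strong inward rectifier, had a mean of 2.27 CPM, and its relative *Kcnj12* one of 0.652 CPM. *Kcnj13*, a channel of the retinal pigment epithelium, had 0.515 CPM, and 49.1% of its exonic bases overlap *Gigyf2* on the opposite strand, which had a mean of 145.1 CPM. The strand setting of the counting is not given in the sources used here, so reads of those 2 genes may not have been told apart.

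The Ca2+ or Na+ activated class had 5 members, none above 10 CPM, and held 1.59% of the summed CPM per kb. The small-conductance Ca2+-activated channels led it. *Kcnn1* had a mean of 4.19 CPM, or 0.913 CPM per kb, and *Kcnn3* a mean of 6.52 CPM, or 0.624 CPM per kb. The ratio of *Kcnn1* to *Kcnn3* was 1.46 per kb of exon and 0.809 per kb of coding sequence, so their order depends on the length used. *Kcnn2* had a mean of 0.659 CPM and the second lowest level per kb of the 42 members, at -3.50 log2 CPM per kb. *Kcnt1*, a Na+-activated channel, had 4.09 CPM, and *Kcnu1* had 1.34 CPM. It encodes a sperm channel that is opened by alkaline pH and voltage, not by Ca2+, and it stands in this class as a relative of the Ca2+-activated channels. The lowest 3 members per kb were *Kcnb2* at -3.39, *Kcnn2* at -3.50 and *Kcnc2* at -3.78 log2 CPM per kb.

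The 7 auxiliary members held 7.22% of the summed CPM per kb. *Kcnip3*, a Ca2+-binding protein that joins *Kcnd* channels and is also known as a transcriptional repressor, lies at chr2:127456498-127522094 on the minus strand. Its mean was 18.3 CPM, or 5.17 CPM per kb, above 53.4% of protein-coding genes, whereas its relative *Kcnip4* had a mean of 1.63 CPM, or 0.451 CPM per kb. *Kcne1l*, a small single-pass subunit on the X chromosome at chrX:142304752-142306294, had a mean of 5.87 CPM, or 3.81 CPM per kb over 1543 exonic bases. It was the only one of the 5 annotated *Kcne* genes with a row. The beta subunits *Kcnab1*, *Kcnab2* and *Kcnab3*, which resemble oxidoreductases, had means of 1.78, 2.73 and 1.85 CPM. *Kcnmb4*, a partner of *Kcnma1*, had a mean of 0.721 CPM, and 31.5% of its exonic bases overlap genes on the opposite strand.

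**Figure D4:**
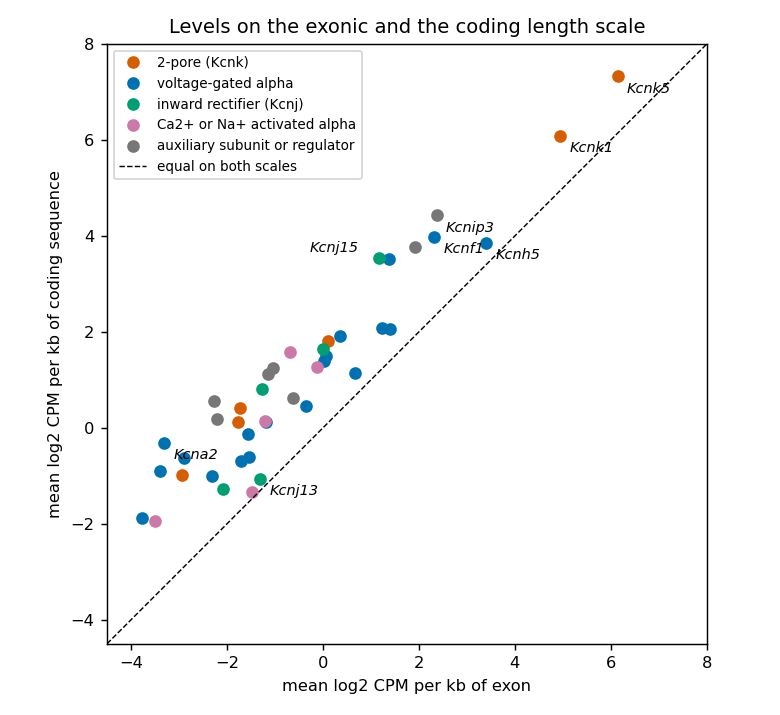
Each point is 1 of the 42 *Kcn* genes, with the mean log2 CPM per kb of exon on the horizontal axis and per kb of coding sequence on the vertical axis, coloured by class, and a dashed line where both are equal. *Kcnk5* and *Kcnk1* are at the upper right on both scales. *Kcnh5* lies above *Kcnip3* and *Kcnf1* per kb of exon and below both per kb of coding sequence.

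Length mattered for the order below *Kcnk5* and *Kcnk1*. Of the 10 members with the highest level per kb of exon, 8 were also among the 10 highest per kb of coding sequence and without a length correction. The largest shift in rank between exonic and coding length was 13 places. *Kcnk5* and *Kcnk1* were first and second on all 3 scales. *Kcnh5* was 2.11-fold above *Kcnf1* per kb of exon, and the ratio was 0.914 per kb of coding sequence. Against *Kcnip3* the ratio of *Kcnh5* was 2.04 per kb of exon and 0.672 per kb of coding sequence.

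Of the 42 members, 24 share no exonic base with another annotated gene, 16 share some with a gene on the opposite strand and 2 with a gene on the same strand. The shared part was over 20% of the exonic bases only in *Kcnj13* and *Kcnmb4*. No 2 members lie within 1 Mb of each other.

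The genes that handle K+ beside the channels were taken from a list of 45 pumps, cotransporters, kinases and channel partners, of which 31 had a row and 19 a mean above 10 CPM. The Na+/K+-ATPase, which takes up the K+ that these channels release, led the list. Its beta subunit *Atp1b1* had a mean of 2594 CPM, or 841.8 CPM per kb. *Atp1b3* had 78.3 CPM per kb, close to the 71.0 CPM per kb of *Kcnk5*. *Atp1b2* had a mean of 37.1 CPM, and *Fxyd6*, a regulator of the pump, 17.3 CPM.

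*Hcn2* is a cation channel opened by hyperpolarization that carries both Na+ and K+. Its mean was 106.3 CPM, or 33.3 CPM per kb of exon, near the level of *Kcnk1*. Coding length was not used for the listed genes. The closeness to *Kcnk1*, and that of *Atp1b3* to *Kcnk5*, was therefore not checked per kb of coding sequence. Among cotransporters that move K+ with Cl-, *Slc12a4* had a mean of 105.3 CPM, *Slc12a2* one of 104.3 CPM and *Slc12a7* one of 28.8 CPM. Per kb of exon they had 24.6, 9.55 and 2.27 CPM. The kinases that regulate those cotransporters were *Wnk1* at 605.3 CPM, *Stk39* at 70.0 CPM, *Oxsr1* at 42.9 CPM, *Wnk2* at 15.5 CPM and *Wnk3* at 12.3 CPM. The lysosomal K+ channel *Tmem175* had 18.9 CPM, and *Tmem38b*, a cation channel of the endoplasmic reticulum, 10.1 CPM. The list was led by pump genes, and 12 of its 31 measured genes had a mean of 10 CPM or less.

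**Figure D5:**
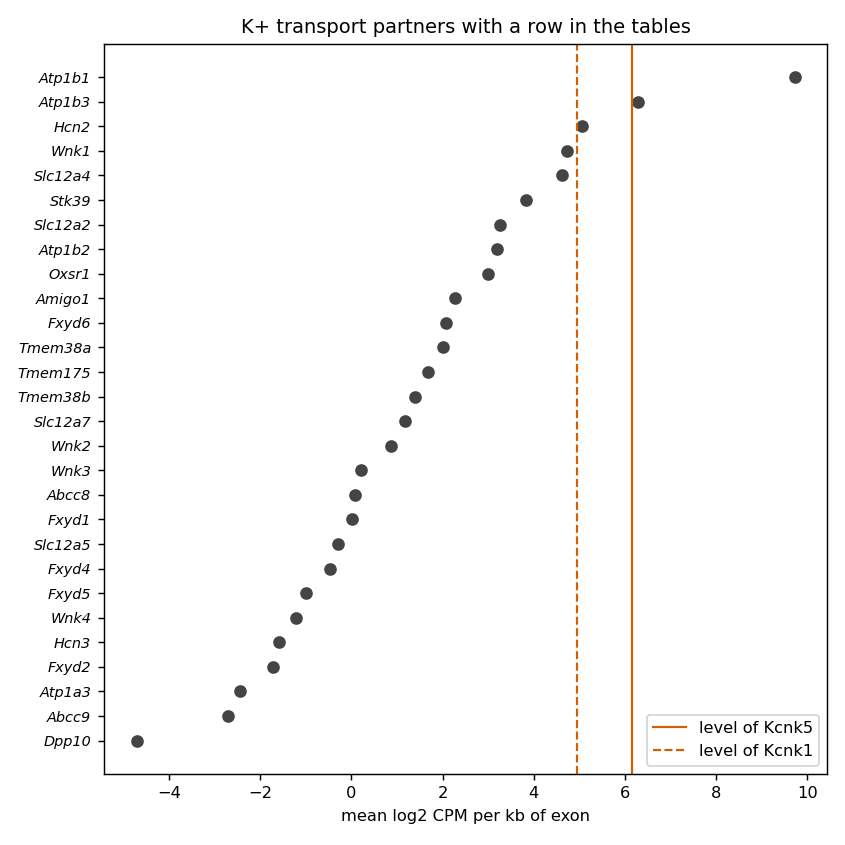
Each point is 1 of 28 of the 31 listed partner genes with a row, placed on the horizontal axis by mean log2 CPM per kb of exon, and the vertical lines mark *Kcnk5* (solid) and *Kcnk1* (dashed). Of the genes drawn, only *Atp1b1* and *Atp1b3* lie to the right of *Kcnk5*.

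The tissue label was checked against markers of the cells a peeled Descemet membrane can hold. All 9 markers of the corneal endothelium had a row and a mean above 10 CPM, among them *Cdh2* at 567.2 CPM, *Aqp1* at 5279 CPM and *Col8a2* at 7100 CPM, and *Slc4a11* itself had a pooled mean of 1676 CPM over both genotypes. Markers of keratocytes, the cells of the stroma, were also high, with 4 of 5 listed genes between 342.5 CPM for *Kera* and 3825 CPM for *Col1a1* and no row for *Thy1*. The median of these 4 was 2078 CPM, against 1676 CPM for the 9 endothelial markers, both without a length correction. Per kb of exon the medians were 366.5 CPM for the keratocyte markers and 217.3 CPM for the endothelial markers. *Krt5* of the corneal epithelium had 34.8 CPM, and the other 4 epithelial markers lay between 0.995 and 6.07 CPM. The muscle genes *Myh11* and *Acta2* had 206.3 and 49.8 CPM, with no row for *Des*, *Actc1* and *Ckm*. The 5 pigment cell markers ran from 0.669 to 9.59 CPM, the 4 lens markers from 0.830 to 2.24 CPM and the 5 leukocyte markers from 1.91 to 19.8 CPM. Of 5 neuron and Schwann cell markers, *Snap25*, *Syt1* and *Tubb3* had no row, and none of the others was above 10 CPM. Of the vascular markers, *Kdr* had 82.1 CPM, *Cdh5* 1.64 CPM and *Pecam1* 1.90 CPM. The part of these other cells in the level of any *Kcn* gene was not tested, and in a bulk sample fewer cells that express a gene and less RNA of it per cell cannot be told apart.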

How the data were processed

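The authors aligned paired-end reads from stranded, low-input total RNA libraries of 12 samples to GRCm38 (mm10) with HISAT2. Read counts were scaled by them to CPM after TMM normalization, and limma with voom was run on genotype, sex and their interaction. Versions, the counter, its strand setting and the annotation release are not given in the sources used here. They deposited 3 tables with the same 15838 genes, in which the mean expression is a log2 value (log2 CPM) over all libraries and was equal in the 3 tables. The other 5 value columns of each table hold the authors' own comparisons (log2 fold change, moderated t, p-value, adjusted p-value and log-odds) for genotype, sex and their interaction, and were not used. Without values per library, sequencing depth is unknown, and no error, interval or test is given.

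Exonic length (the union of all annotated exons), coding length (the longest annotated transcript) and positions came from GENCODE M21 on GRCm38, which held 15824 of the 15838 genes. Levels were compared as log2 CPM minus log2 of the length in kb. Filter codons were searched in the longest complete coding sequence of each gene, and the search was tested on simulated sequences. Python 3.11.15, pandas 2.3.3, numpy 2.4.6 and matplotlib 3.10.9 were used.

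The members, classes, marker lists and partner list were chosen with earlier results of these data known. Named genes are every member above 10 CPM, the 2 highest of each class and the 3 lowest per kb of exon, partner genes above 10 CPM and the cell type markers. Of the genes under this rule and the other members, some are not reported here, among them 3 of the 42 members, which stay in the counts. The other members are given to account for the family, and the ratios, shared bases and members named outside this rule were chosen after their values were seen. Alternatives were other CPM thresholds, coding length or no length correction, all genes as the comparison, pore-forming members only and other forms of the motif.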

Additional observations from a re-analysis of the deposited data

How the results depend on the processing

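Of the 26 alternatives run, 21 left the value within 1.5 times the main count, left the difference of medians within 50% of its main value or left the same gene leading its class. The members above 1 CPM fell from 36 to 22 with a threshold of 2 CPM, and the members above 10 CPM rose from 7 to 15 with one of 5 CPM, so both counts depend on where the threshold is set. *Kcnh5* led the next voltage-gated member by 1.08 on the log2 scale per kb of exon, but was at -0.13 against *Kcnf1* per kb of coding sequence. *Kcnn1* led its class by 0.55 per kb of exon, but was at -0.31 against *Kcnn3* per kb of coding sequence and at -0.64 without length correction. Both reversals follow from the length used, since each level is the same CPM divided by another length. The difference of medians between members and protein-coding genes was -3.28 per kb of exon, -3.16 per kb of coding sequence and -3.05 without length correction on the log2 scale. The number above the median of protein-coding genes was 5, with 4 per kb of coding sequence and 6 against all genes of the tables. Per kb of coding sequence, *Kcnh5* was the one that fell below the median. The searches in coding DNA in place of proteins, and with a valine or isoleucine codon required, were added after the data were seen. No paired analysis was possible because the tables used hold no value per library. For the same reason leaving out each replicate, other pseudocounts and filters on low values were not run. The motif search in RefSeq proteins was also not run, since only coding DNA was used. Library depth is unknown, so how far counting error limits the 6 members at or below 1 CPM cannot be given.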

Other observations

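*Kcnq1ot1*, the one *Kcn* row that is not protein-coding, is a long antisense RNA from within *Kcnq1*, known from the imprinted domain around that gene, at chr7:143203458-143296549 on the minus strand of GRCm38. Its pooled mean was 179.4 CPM over 93092 exonic bases, or 0.95 log2 CPM per kb, against 1.25 CPM and -1.71 log2 CPM per kb for *Kcnq1*. The annotated exons of *Kcnq1* share 121 bases (2.96%) with it on the opposite strand. It was chosen after its value was seen.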
